A study of Tupaia belangeri chinensis with 36 samples.

Results

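The inner subventricular zone (ISVZ) of the fetal cortex of the Chinese tree shrew (Tupaia belangeri chinensis) was followed from embryonic day 28 (E28) to embryonic day 42 (E42). All 4 libraries labelled as ISVZ, 2 from each stage, were taken from the 36 RNA sequencing libraries of the series, each of which was made from 1 cortical layer cut out of Nissl-stained frozen sections by laser microdissection. Neither stage carried a label of genotype or treatment, and whether the libraries of a stage came from separate fetuses is not stated in the labels. The p-values therefore measure the spread between libraries, which the fit shared over 18 groups of layer and stage. The change in the ISVZ was set beside the change in the outer subventricular zone (OSVZ) and in the intermediate zone (IZ), which also had 2 libraries at each stage, and beside the difference between the cortical plate (CP) and the ventricular zone (VZ) at E28. ISVZ libraries of other stages were not analysed here.

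The ISVZ lies on the VZ, where radial glia divide along the ventricle. It holds mainly intermediate progenitors, which arise from radial glia and divide to give excitatory neurons that then migrate through the OSVZ and the IZ to the CP. Inhibitory interneurons come from the ventral forebrain, and many enter the cortex along a route through the subventricular zone. Late in cortical development the germinal layers turn from making neurons to making astrocytes and oligodendrocytes.

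The features counted were of 3 kinds, and they are described apart. Features with a TSDBGID identifier carry no gene symbol, and 0 of them were found in a RefSeq table of tree shrew genes. LINC features (LINC-SYMBOL-n, intergenic) and antisense features (SYMBOL-AS-n) are noncoding transcripts that bear the symbol of a gene. Such a feature is not that gene. The sources used here do not state whether strand was used in counting, so reads of an antisense feature and of the gene it overlaps cannot be told apart. Because TSDBGID features carry no symbol, markers of the ISVZ among protein-coding genes could not be looked up by name, and the layer was checked through noncoding features. In bulk tissue, fewer cells of a type and less RNA per cell cannot be told apart.

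The counts on features summed to 30187502 and 33954220 in the ISVZ libraries of E28 and to 36896538 and 52442035 in those of E42, within a range of 17932690 to 102042743 over the series. One ISVZ library stood apart. In replicate 1 of E28, 15.45% of the lines counted were reads without a unique alignment, against 1.996% to 4.789% in the 35 other libraries, and 6 features, with 0.588% of its counts, were more than 10-fold above their level in every other library. A further 3 features had 0 counts in all 6 replicate 1 libraries of E28 and at least 100 in all 6 replicate 2 libraries. One library labelled as VZ of E42 held the same counts as a VZ library of E28. It was left out and the counts were taken as E28, although which of the 2 labels is right is not settled by the labels. Reads on no feature made up 8.556% and 10.45% of the lines at E28 and 14.05% and 11.85% at E42, and 25281 and 26107 features had a count at E28 against 31422 and 31816 at E42. Both values moved with stage, and their part in the results below was not tested.

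Between E28 and E42 the ISVZ changed in both directions, and noncoding transcripts changed mostly upward. Of the 26858 features tested, 1892 were higher and 2019 were lower at E42 at an adjusted p under 0.05 (edgeR quasi-likelihood test, Benjamini-Hochberg over all features), in all 14.6% of those tested. Among the 15911 TSDBGID features, 1602 (10.1%) were higher and 1952 (12.3%) were lower, with a median log2 fold change of 1.70 in the first group and −0.98 in the second. Among the 3922 LINC features, 102 (2.6%) were higher and 43 (1.1%) were lower. Among the 6914 antisense features, 188 (2.72%) were higher and 23 (0.333%) were lower. Thus 290 noncoding features rose and 66 fell, of 10836 tested (3.29% in either direction). The levels of the 2 stages did not overlap for any of the 102 LINC and 188 antisense features that rose. The same held for 42 of the 43 LINC and 22 of the 23 antisense features that fell. A lack of overlap therefore adds little to a call.

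The upward shift of the noncoding classes was also seen without reference to the calls. Among features with a mean of at least 20 counts over the 4 libraries, 76.5% of 1713 antisense features had a log2 fold change above 0, with a median of 0.71, and 63.5% of 736 LINC features did, with a median of 0.48. The median of the TSDBGID features was −0.09 on the same scale. For the same features, chosen by their counts in the ISVZ libraries, the medians in the OSVZ were 0.29 for antisense and 0.48 for LINC features. In the IZ they were 0.02 and 0.11. The filter used the ISVZ libraries alone, so these values do not compare the layers evenly. Over all antisense and LINC features tested, the medians were 0.89 and 0.69 in the ISVZ. They were 0.33 and 0.28 in the OSVZ and 0.13 and 0.22 in the IZ. The share of all counts that fell on antisense features was 1.103% and 0.8685% at E28 and 1.307% and 1.094% at E42, so that the stages overlapped. For LINC features the share was 1.155% and 0.8913% at E28 and 0.7929% and 0.7595% at E42, lower without overlap. The upward shift of the LINC class thus holds for most of its features, not for its share of counts.

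The balance of higher and lower calls depended on the scaling of the libraries, and the number of calls on each library. With library totals alone in place of the TMM factors, 2519 features were higher and 1192 lower (67.9% higher, against 48.4%), and the median log2 fold change of all features moved up by 0.21. Noncoding features remained mostly higher with this scaling (373 against 41). Leaving out 1 library left that stage with a single sample, which is then assumed to vary like the other groups. Without E28 replicate 1, 1046 features were higher and 1120 lower, without E28 replicate 2, 1036 and 1516, without E42 replicate 1, 1059 and 845, and without E42 replicate 2, 1182 and 1415. The noncoding counts in these fits were 94 higher and 34 lower, 115 and 44, 110 and 23, and 170 and 31. Of the 99 features named below or in the plots that were called in the ISVZ, 31 kept the call without each of the 4 libraries in turn.

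**Figure D1:**
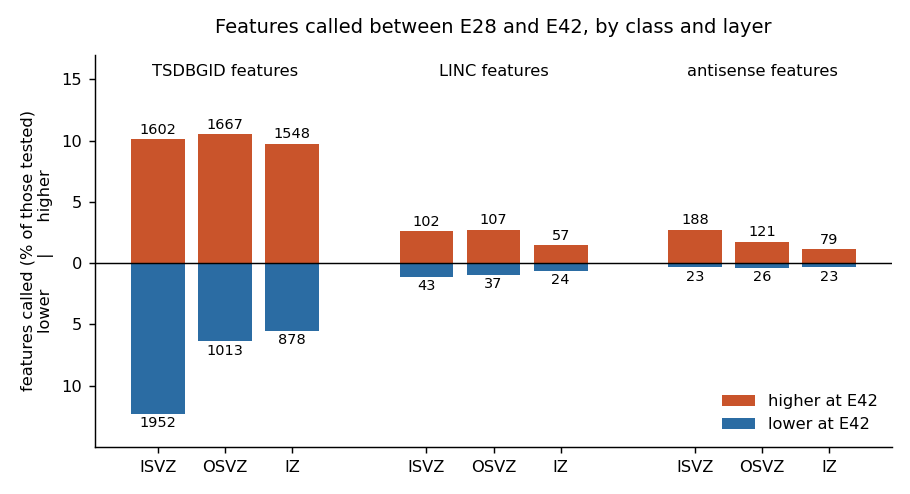
Share of the tested features of each class (in %) that were called higher (above 0) or lower (below 0) at E42 than at E28 in the ISVZ, OSVZ and IZ, with the number of features at each bar. In the ISVZ, 1952 TSDBGID features were lower and 1602 higher, whereas 188 antisense features were higher and 23 lower.

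The noncoding features that fell included several named after regulators of dividing cortical cells. NEUROG1-AS-1 bears the symbol of a proneural transcription factor that drives progenitors toward the neuronal fate. Its level in CPM (counts scaled by library size and TMM factor) was 13.6 and 12.7 at E28 and 0.383 and 0.394 at E42. The stages did not overlap, and the log2 fold change was −5.07 ± 0.93 (SE, n = 2 libraries per stage; adjusted p = 4.7e-04). At E28 this transcript fell steadily from the ventricle outward, from 32.6 and 26.1 CPM in the VZ to 3.91 and 4.51 in the OSVZ and 0 and 0.0811 in the CP, so the E28 ISVZ stood between its neighbours. At E42 the VZ library still had 6.28 CPM.

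CCNB1-AS-1, which shares its symbol with cyclin B1, the cyclin of entry into mitosis, had 24.4 and 24.5 CPM at E28 and 6.21 and 7.27 at E42. Both E42 libraries lay below both E28 libraries (log2 fold change −1.86 ± 0.36, adjusted p = 5.7e-04). LINC-RRM2-1, named after a subunit of the ribonucleotide reductase that supplies DNA synthesis, had 7.42 and 9.62 CPM at E28 and 2.49 and 2.06 at E42. Its log2 fold change was −1.90 ± 0.63 (adjusted p = 0.040), and the call was lost when any 1 of the 4 libraries was left out, with adjusted p up to 0.195. These were the 2 of 57 tested features of the cell cycle and DNA repair list that fell, and 0 rose, with 0 at an unadjusted p under 0.05 and 0 with DESeq2 or with limma voom fitted with stage and replicate number as a random block (blocked limma voom). Over all noncoding features, 2.68% rose and 0.609% fell. The median log2 fold change of the list was −0.39, against 0.83 for all noncoding features.

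Features named after radial glia genes moved in both directions. LINC-DMRTA2-1, named after a transcription factor of cortical progenitors, had 6.6 and 6.0 CPM at E28 and 0.551 and 0.125 at E42. It was lower in both E42 libraries (log2 fold change −4.24 ± 1.08, adjusted p = 0.0091), though not called without E42 replicate 2 (adjusted p = 0.11). In the VZ it stayed at 13.5 and 12.2 CPM at E28 and 14.7 in the E42 library. LINC-HES1-15, named after a Notch target that keeps progenitors undifferentiated, had 0.18 and 0.335 CPM at E28 and 0 counts at E42, which makes it at least 8.59-fold lower against a floor of 3 counts over both libraries. Its call was lost without any 1 library (adjusted p up to 0.19).

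LINC-PTPRZ1-1 went the other way. It is named after a receptor phosphatase of outer radial glia and oligodendrocyte precursors, and it rose from 0.0721 and 0.0913 CPM to 0.911 and 1.38 (log2 fold change 3.75 ± 0.87, adjusted p = 0.0032). It was not called without E28 replicate 1 (adjusted p = 0.0502). At E28 LINC-PTPRZ1-1 had been higher in the CP than in the VZ (log2 fold change 6.20, adjusted p = 9.4e-06). It rose in the OSVZ as well (3.40, adjusted p = 0.0028), and the difference between the layers, 0.345, was not called. Of the 57 features tested in the radial glia list 1 rose (1.75%) and 3 fell (5.26%), and the median log2 fold change was 0.02. The shares of all noncoding features that rose and fell were 2.68% and 0.609%. SOX9-AS-1, LINC-SOX2-3 and LINC-HOPX-1, named after other radial glia genes, had log2 fold changes of −0.35, 0.05 and −0.28 and were not called. The 28 features of the intermediate progenitor list had a median log2 fold change of 1.19, against 0.83 for all noncoding features, and 17 were above 0. NEUROG1-AS-1 was the 1 of them that fell. The 1 that rose was LINC-HES6-2, named after a Notch-pathway factor that promotes differentiation, with 0.288 and 0.426 CPM at E28 and 1.65 and 1.5 at E42 (log2 fold change 2.13 ± 0.68, adjusted p = 0.031), and its call was lost without any 1 library (adjusted p up to 0.229).

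The counts that rose from E28 to E42 included those of transcripts named after genes of inhibitory neurons. GAD1 encodes the enzyme that makes the transmitter GABA, and both antisense features with its symbol rose. GAD1-AS-1 had 0.505 and 0.822 CPM at E28 and 6.09 and 6.27 at E42, with no overlap (log2 fold change 3.21 ± 0.71, adjusted p = 0.0022). GAD1-AS-2 had 1.04 and 1.67 CPM at E28 and 6.13 and 7.75 at E42 (log2 fold change 2.35 ± 0.68, adjusted p = 0.017). Without E28 replicate 1 the adjusted p of GAD1-AS-1 was 0.0534, and GAD1-AS-2 was not called without any 1 library (adjusted p up to 0.182).

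LINC-SLC32A1-1, named after the vesicular GABA transporter, rose from 5.77 and 3.01 CPM to 16.1 and 24.2 (log2 fold change 2.20 ± 0.71, adjusted p = 0.034), a call that needed all 4 libraries (adjusted p up to 0.267). For each of the 3 transcripts both E42 ISVZ libraries stood above every library of the other layers and stages. Their changes were not shown to differ from those in the OSVZ, where the log2 fold changes were 2.90 for GAD1-AS-1 (adjusted p = 0.0072), 1.84 for GAD1-AS-2 (0.085) and 2.53 for LINC-SLC32A1-1 (0.022), and the differences between the layers were 0.30, 0.50 and −0.33 (adjusted p = 1, 0.94 and 1). LINC-ZEB2-1 and ZEB2-AS-4 bear the symbol of a transcription factor that directs the migration of cortical interneurons. The first rose from 1.59 and 0.883 to 8.34 and 6.05 CPM (log2 fold change 2.54 ± 0.48, adjusted p = 4.0e-04) and kept its call without each library. The second rose from 1.44 and 1.8 to 9.08 and 5.21 CPM (log2 fold change 2.14 ± 0.52, adjusted p = 0.0043), and was not called without E28 replicate 1 (0.067) or E42 replicate 1 (0.0868).

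These 5 were the members of the interneuron list that rose, 10.9% of 46 tested, against the 2.68% of all noncoding features. In the OSVZ 6 of the 46 rose, where 2.1% of all noncoding features did. Of the 46, 39 had a log2 fold change above 0 and the median was 1.79. Among all 10836 noncoding features 7384 had a log2 fold change above 0 and the median was 0.83. Of the 46, 0 fell, with 0 at an unadjusted p under 0.05 and 0 with DESeq2 or blocked limma voom. DLX5-AS-1, named after a homeobox gene of interneuron precursors, had 3.89 and 2.65 CPM at E28 and 11.6 and 11.1 at E42, with an adjusted p of 0.059. The summed level of the list was 98.8 and 200 CPM at E28 and 263 and 274 at E42. Most of it was MEIS2-AS-3, with 64.3 and 182 CPM at E28 and 170 and 177 at E42, where the stages overlapped.

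LINC-SOX10-1, named after a transcription factor that oligodendrocyte precursors depend on, had 0.108 and 0.122 CPM at E28 and 2.3 and 0.985 at E42. Both E42 libraries were higher (log2 fold change 3.79 ± 0.83, adjusted p = 0.0023), and the call held without each library. At E42 the ISVZ was not where it was highest. It had 16.2 and 8.86 CPM in the OSVZ and 4.37 and 10.1 in the IZ. It was the 1 feature of 17 in the oligodendrocyte list that rose (5.88%, against 2.68% of all noncoding features). Of the 17, 16 had a log2 fold change above 0, against 7384 of all 10836 noncoding features. Only 2 of the 17 had a mean of at least 20 counts. The median of the list was 3.68, and 0.96 where members without a count at one stage were set at a bound of 3 counts. For all noncoding features these medians were 0.83 and 0.47. The summed level of the list was 1.55 and 1.61 CPM at E28 and 6.49 and 5.46 at E42. Of the 32 features of the astrocyte list 0 were called with edgeR, with 3 higher and 0 lower at an unadjusted p under 0.05, 0 called with DESeq2 and 3 called higher with blocked limma voom.

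Of the 44 features tested with the symbol of a SOX gene, 3 rose (6.82%) and 2 fell (4.55%). The shares of all noncoding features were 2.68% and 0.609%. Besides LINC-SOX10-1, those that rose were LINC-SOX4-6 and LINC-SOX17-9, and those that fell were 2 of SOX11. SOX4 and SOX11 both encode factors of early neuronal differentiation. LINC-SOX4-6 rose from 0.0721 and 0.0913 to 1.03 and 1.32 CPM (log2 fold change 3.79 ± 0.77, adjusted p = 9.5e-04) and kept the call without each library. LINC-SOX11-22 and LINC-SOX11-20 fell, from 10.3 and 9.31 to 0.216 and 0.466 CPM and from 10.8 and 10.3 to 0.695 and 0.645 CPM (log2 fold changes −4.82 ± 1.23 and −3.97 ± 1.15). The adjusted p were 0.0099 and 0.022. LINC-SOX11-22 was not called without E42 replicate 1 (0.128) or E42 replicate 2 (0.0591), and LINC-SOX11-20 not without any 1 library (up to 0.149). Of the 9 SOX11 features tested 5 had a log2 fold change above 0, so the fall was not shared by the symbol. LINC-SOX11-22 also stood low in the E42 OSVZ, at 0.386 and 0.274 CPM.

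In the lists of genes of neuronal connection more noncoding features rose than fell, as among all noncoding features, of which 2.68% rose and 0.609% fell. In the list of neurotransmitter receptors 9 of 121 rose and 1 fell (7.44% and 0.826%), in that of synaptic adhesion 8 of 145 rose and 0 fell (0 with DESeq2 or blocked limma voom, and 1 at an unadjusted p under 0.05), and in that of axon guidance 4 of 113 rose and 1 fell (3.54% and 0.885%). Their median log2 fold changes were 1.56, 1.36 and 1.09. Where members without a count at one stage were set at a bound of 3 counts, the medians were 0.55, 0.54 and 0.61, against 0.47 for all noncoding features. The projection neuron list had 3 of 74 features that rose (4.05%) and 0 that fell (1 at an unadjusted p under 0.05, 0 with DESeq2 and 1 with blocked limma voom).

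GLRB-AS-3 bears the symbol of the beta subunit of the glycine receptor. It rose from 0.397 and 0.7 to 5.13 and 3.83 CPM (log2 fold change 3.01 ± 0.57, adjusted p = 4.4e-04). LINC-GPR12-2, named after an orphan receptor coupled to G proteins, rose from 0 and 0.122 to 1.46 and 1.79 CPM (log2 fold change 4.58 ± 0.70, adjusted p = 3.4e-05). SLITRK3-AS-1, with the symbol of an adhesion protein of inhibitory synapses, rose from 0.577 and 0.883 to 3.0 and 2.83 CPM (log2 fold change 1.98 ± 0.42, adjusted p = 0.0013). In each of these 3 the E42 libraries lay above the E28 libraries, and the calls held without each library.

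Some features of these lists had 0 counts in both E28 libraries, so that a fold is given as a bound. SSTR1-AS-1, named after a somatostatin receptor, had 1.03 and 0.287 CPM at E42 and was at least 12.2-fold higher (adjusted p = 0.0016). LINC-C1QL1-1, named after a secreted organizer of synapses, had 0.647 and 0.555 CPM and was at least 12.0-fold higher (adjusted p = 0.0032). LINC-GRIA2-1, named after a subunit of AMPA-type glutamate receptors, had 0.863 and 0.358 CPM and was at least 11.6-fold higher (adjusted p = 0.0039), and was not called without E28 replicate 2 (0.0536). These levels are low, and they rest on 59, 58 and 56 counts over both E42 libraries.

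Among features named after genes of excitatory neurons, LINC-MEF2C-1, with the symbol of a transcription factor of maturing cortical neurons, rose from 1.12 and 0.609 to 4.55 and 2.78 CPM (log2 fold change 2.09 ± 0.48, adjusted p = 0.0029). It was not called without E28 replicate 2 (0.0807) or E42 replicate 1 (0.0625). LINC-POU3F3-23, named after a factor of upper-layer neurons, rose from 1.91 and 1.19 to 11.8 and 5.8 CPM (log2 fold change 2.51 ± 0.72, adjusted p = 0.017). At E28, LINC-MEF2C-1 had been higher in the CP than in the VZ (log2 fold change 5.57, adjusted p = 1.0e-08). LINC-POU3F3-23 had been higher in the VZ than in the CP (−2.30, adjusted p = 0.030). It kept the call without E42 replicate 2 alone (adjusted p up to 0.181 in the other fits), and its level at E42 was higher in the OSVZ, at 19.5 and 17.6 CPM.

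PLXNA4-AS-9, the most abundant of the guidance features named, rose from 32.1 and 34.2 to 60.7 and 76.3 CPM (log2 fold change 1.05 ± 0.28, adjusted p = 0.011; up to 0.124 without 1 library). PLXNA4 encodes a semaphorin receptor. VLDLR-AS-2, with the symbol of a reelin receptor, rose by less, from 11.4 and 7.43 to 16.2 and 14.3 CPM (log2 fold change 0.70 ± 0.235, adjusted p = 0.044; up to 0.474 without 1 library). The guidance feature that fell was LINC-PLXNA2-19, from 1.8 and 2.56 to 0.264 and 0.0537 CPM (log2 fold change −3.78 ± 1.16, adjusted p = 0.025), and it was not called without any 1 library (adjusted p up to 0.215).

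The counts of the remaining lists are given beside the 2.68% of all noncoding features that rose. Homeobox genes had 6 of 119 features higher (5.04%) and 2 lower, zinc finger genes 8 of 352 (2.27%) and 1, extracellular matrix 5 of 112 (4.46%) and 2, morphogen signalling 4 of 130 (3.08%) and 2, and voltage-gated channels 3 of 122 (2.46%) and 1. Solute carriers had 5 of 193 features higher (2.59%) and cadherins 2 of 68 (2.94%). The list of the switch from making neurons to making glia had 1 of 44 higher (2.27%), LINC-SOX10-1. That of Cajal-Retzius cells and migration had 1 of 28 higher (3.57%), VLDLR-AS-2. Markers of other cells that a dissected layer can hold were also counted. For endothelium and pericytes 2 of 16 features rose, LINC-SOX17-9 and LINC-CDH5-2 (adjusted p up to 0.254 and 0.138 without 1 library), and the summed level of the list was 2.38 and 5.18 CPM at E28 and 6.16 and 4.62 at E42. For microglia and blood 0 of 7 were called, with 0 at an unadjusted p under 0.05 and 0 with DESeq2 or blocked limma voom, and the summed level was 13.7 and 8.1 CPM at E28 and 18.1 and 19.7 at E42. For choroid plexus and ependyma 0 of 11 were called, with 3 at an unadjusted p under 0.05 and 1 each with DESeq2 (higher) and blocked limma voom (lower), and the summed level was 22.0 and 28.7 CPM at E28 and 41.0 and 33.7 at E42. Their part in the other changes was not tested.

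**Figure D2:**
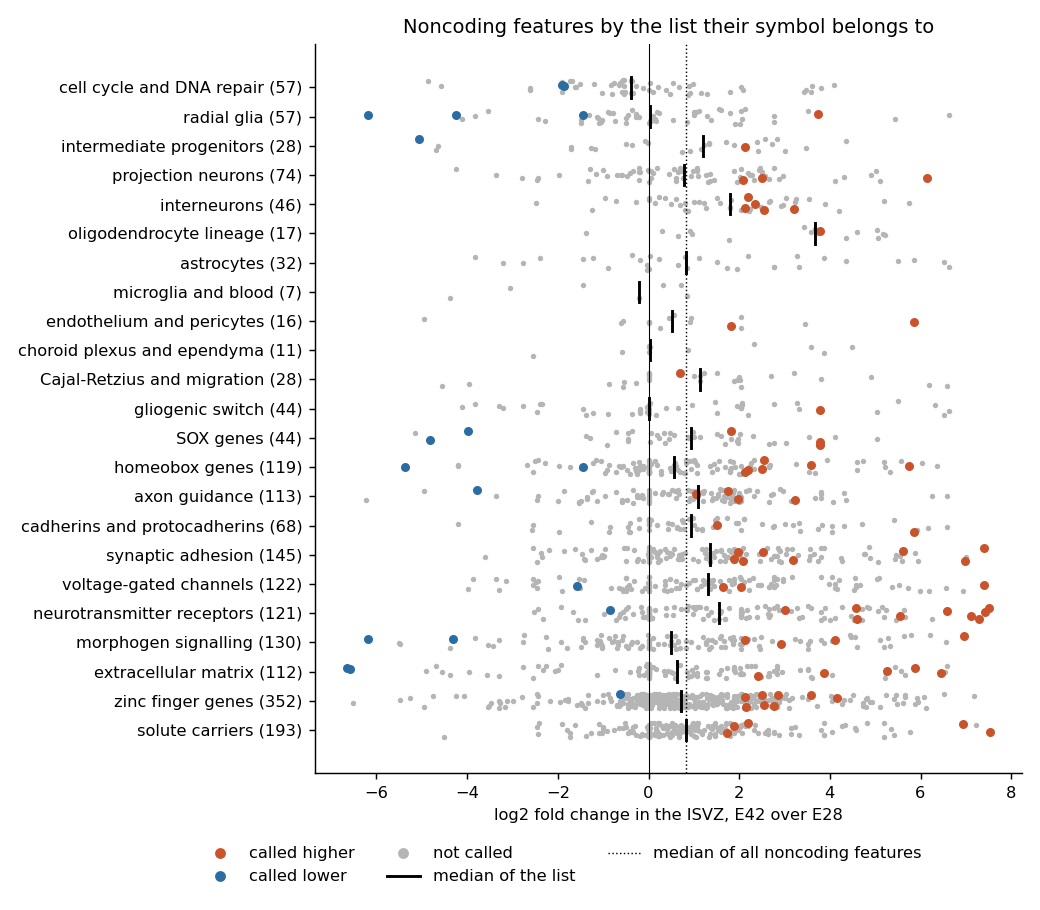
Log2 fold change in the ISVZ from E28 to E42 (horizontal axis) of every tested noncoding feature of 23 lists, grouped by the gene whose symbol it bears, with the number tested in parentheses. Coloured points were called higher or lower, bars are medians of the lists and the dotted line is the median of all noncoding features, 0.83. The cell cycle list has its median at −0.39 and the interneuron list at 1.79.

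Among noncoding features with at least 20 counts on average, the largest falls were of transcripts that nearly vanished. LINC-VAMP3-1 had 129 and 357 CPM at E28 and 0 and 0.0179 CPM at E42, where a single read was counted in replicate 2. LINC-SUCLG1-21 had 7.79 and 16.5 CPM at E28 and 2 reads in all at E42, a pooled ratio of 611 in favour of E28 (95% counting interval 168.6 to 5055). LINC-ANKRD50-5 had 1.91 and 4.2 CPM at E28 and 1 read at E42, a pooled ratio of 307.5 in favour of E28 (95% counting interval 54.54 to 12210). IGHV4-28-AS-1 had 4.61 and 16.0 CPM at E28 and 0.024 and 0.0896 at E42 (log2 fold change −7.35 ± 1.01, adjusted p = 7.3e-05). CATSPER1-AS-1, CLEC4D-AS-1 and ADCYAP1-AS-2 fell as well, by log2 fold changes of −7.19, −6.30 and −5.37. In each of these features replicate 2 had the higher level at E28.

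Several of the features with the largest fitted rises had no count at E28, so that they cannot be ranked among each other or against the rest. LINC-YTHDC2-14 had 4.5 and 1.74 CPM at E42 and 0 counts at E28, so it was at least 59.0-fold higher (adjusted p = 0.019; up to 0.129 without 1 library). RGS6-AS-1, named after a regulator of G-protein signalling, had 2.56 and 1.32 CPM at E42 and was at least 37.5-fold higher (adjusted p = 5.8e-05), with the call kept without each library. LINC-ATXN1-6 and HMGN2-AS-4 were at least 21.3-fold and 20.3-fold higher, and the second was not called without 1 library (adjusted p up to 0.114). PMP22-AS-1, with the symbol of a myelin protein, had 1 read at E28 and 243 at E42, a pooled ratio of 150.9 (95% counting interval 26.83 to 5985). ITGB5-AS-3, named after an integrin subunit, rose from 0.108 and 0.335 to 7.45 and 10.2 CPM (log2 fold change 5.27 ± 0.88, adjusted p = 1.6e-04). It was highest in the E42 VZ library, at 30.2 CPM.

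**Figure D3:**
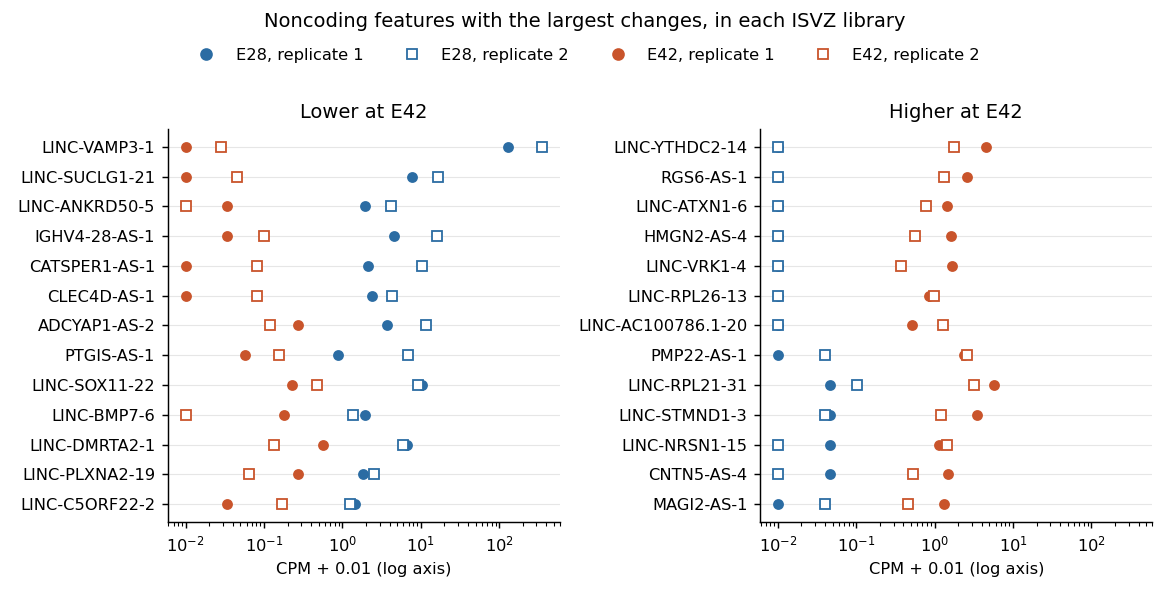
Level of the noncoding features with the largest falls (left) and rises (right) in each of the 4 ISVZ libraries, as CPM plus 0.01 on a log axis. Points at the left end are libraries without a count. The features shown were chosen so that the 2 stages do not overlap.

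Of the TSDBGID features with a mean of at least 5 CPM, the largest rises were of TSDBGID.7419, from 1.08 and 2.47 to 427 and 228 CPM (log2 fold change 7.51 ± 1.06, adjusted p = 9.4e-05), and of TSDBGID.18817, from 0.18 and 0.0304 to 20.0 and 11.6 CPM (7.25 ± 1.15, adjusted p = 2.8e-04). The largest falls were of TSDBGID.17859, from 142 and 298 CPM to 0 and 0.0358, and of TSDBGID.5343, from 17.7 and 34.0 CPM to 0.0959 and 0. No symbol is paired with these identifiers in the sources used here.

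For 3 symbols, 3 features were called. BIN1, which encodes a protein that bends membranes, had 4 features tested, all with a log2 fold change above 0, of which 3 rose. BIN1-AS-3 went from 0.757 and 1.03 to 3.79 and 2.58 CPM (log2 fold change 1.82 ± 0.55, adjusted p = 0.022), BIN1-AS-2 from 0.324 and 0.304 to 2.21 and 1.34 CPM (2.48 ± 0.62, adjusted p = 0.0059) and BIN1-AS-1 from 0.397 and 0.426 to 1.44 and 1.45 CPM (1.80 ± 0.56, adjusted p = 0.026). Each of the 3 calls was lost in at least 1 fit without a library, with adjusted p up to 0.187. The other symbols were NCL (3 of 14 tested rose) and RPL21 (3 of 28 rose), both of which have many near-identical copies in mammalian genomes, so that the assignment of their reads is uncertain.

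The position of the changed features was read from libraries that did not enter the ISVZ comparison. These were the CP and VZ libraries of E28, between which 27.1% of all features were called. Features that rose in the ISVZ were often those of the CP at E28, and features that fell were often those of the VZ. Of the 1602 TSDBGID features that rose, 63.8% had been higher in the CP than in the VZ at E28 and 9.93% higher in the VZ, against 18.3% and 20.9% of all TSDBGID features tested. Of the 1952 that fell, 3.02% had been higher in the CP and 57.4% in the VZ. The noncoding features followed the same order. Of the LINC features that rose, 44.1% had been higher in the CP and 3.92% in the VZ (6.09% and 4.49% of all tested), and of the antisense features that rose, 55.3% and 1.6% (6.13% and 2.7% of all tested).

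The 2906 TSDBGID features that were higher in the CP than in the VZ at E28 took 19.4% and 18.7% of the counts of the ISVZ libraries at E28 and 28.4% and 27.8% at E42. The 3329 that were higher in the VZ took 32.0% and 33.9% at E28 and 24.9% and 25.1% at E42. In both sets the stages did not overlap. Whether the E42 samples held more cells of the outer layers, or whether their cells used these genes more, was not tested.

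**Figure D4:**
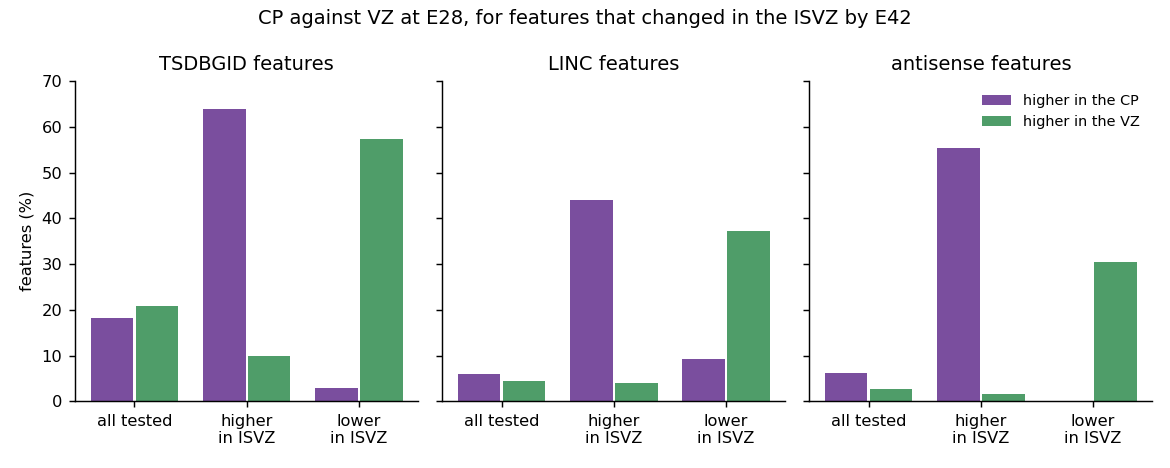
Share of features (in %) that were called higher in the CP or higher in the VZ in the comparison of these layers at E28, for all tested features of a class and for those that rose or fell in the ISVZ by E42. Among TSDBGID features that rose, 63.8% had been higher in the CP, and among those that fell, 57.4% had been higher in the VZ.

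The change in the ISVZ was next compared with that in the adjoining OSVZ, where 1896 features rose and 1076 fell (11.1% of those tested). The difference of the 2 changes was tested directly, and 1066 features passed (3.97%), 442 with the more positive change in the ISVZ and 624 with the more positive change in the OSVZ. Of these, 40 were noncoding (0.369% of the noncoding features tested). Leaving out 1 ISVZ library gave between 540 and 842 features, with 842 without E28 replicate 1, 540 without E28 replicate 2, 618 without E42 replicate 1 and 582 without E42 replicate 2.

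MAP4-AS-2, named after a protein that binds microtubules, rose in the ISVZ from 12.4 and 8.22 to 34.4 and 35.8 CPM (log2 fold change 1.77 ± 0.20, adjusted p = 4.7e-07). In the OSVZ it had 39.7 and 36.6 CPM at E28 and 38.0 and 32.8 at E42. The difference of the changes was 1.88 on the log2 scale (adjusted p = 1.2e-04; 0.0941 with the library of repeated counts included). At E42 the ISVZ and OSVZ libraries thus lay in the same range, and the CP libraries of E28 had 113 and 158 CPM. LINC-LORF2-107 rose in the ISVZ from 10.4 and 10.5 to 16.6 and 20.5 CPM and fell in the OSVZ from 46.1 and 37.1 to 11.3 and 15.6 CPM, a difference of 2.45 (adjusted p = 8.4e-05). The rise in the ISVZ alone (0.83, adjusted p = 0.020) had an adjusted p up to 0.213 without 1 library. Its symbol is that of a repeated element, so its reads may be shared between copies.

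LINC-REPS1-3 fell in both layers, from 93.9 and 87.3 to 25.2 and 26.4 CPM in the ISVZ and from 266 and 273 to 16.4 and 13.6 CPM in the OSVZ, by 2.36 less on the log2 scale in the ISVZ (adjusted p = 2.8e-04). LINC-TMEM132B-23, named after a transmembrane protein, fell in the ISVZ from 7.06 and 10.6 to 3.52 and 1.93 CPM, whereas in the OSVZ it rose from 1.79 and 1.33 to 9.12 and 9.03 CPM (difference −4.24, adjusted p = 1.5e-04). LINC-GPR85-2, with the symbol of a brain receptor coupled to G proteins, fell in the ISVZ from 36.3 and 34.6 to 19.0 and 20.4 CPM and rose in the OSVZ from 18.5 and 15.7 to 31.2 and 24.6 CPM (difference −1.55, adjusted p = 0.0036). For these 3 transcripts the order of the layers at E28 was turned around at E42. The falls in the ISVZ of LINC-TMEM132B-23 and LINC-GPR85-2 taken alone were lost without some libraries (adjusted p up to 0.127 and 0.0978). SOX9-AS-1, picked after its values were seen and named after a radial glia and glial factor, differed as well. It had a log2 fold change of −0.35 in the ISVZ and 3.16 in the OSVZ (difference −3.52, adjusted p = 0.0063).

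In the IZ, which is rich in migrating neurons and fibres, 1685 features rose and 925 fell (9.72%). The difference between the ISVZ and IZ changes passed for 1015 features (3.78%), of which 57 were noncoding (0.526%). There were 715 without E28 replicate 1, 576 without E28 replicate 2, 472 without E42 replicate 1 and 569 without E42 replicate 2. MAP4-AS-2 differed here as well (1.498, adjusted p = 0.0013; 0.215 with the library of repeated counts included), since the IZ had 73.1 and 72.0 CPM at E28 and 89.9 and 85.4 at E42. LINC-ZFHX4-6, named after a large zinc finger and homeobox protein, fell in the ISVZ from 52.8 and 66.0 to 21.6 and 22.1 CPM and rose in the IZ from 2.58 and 6.6 to 16.4 and 15.9 CPM (difference −3.26, adjusted p = 0.0051). LINC-PLIN3-8, with the symbol of a coat protein of lipid droplets, fell in the ISVZ from 6.88 and 6.24 to 2.61 and 2.94 CPM and rose in the IZ from 5.96 and 6.56 to 14.4 and 18.9 CPM (difference −2.65, adjusted p = 9.2e-04). Taken alone, their falls in the ISVZ had adjusted p up to 0.168 and 0.0969 without 1 library. LINC-GPR12-2 differed from both layers (4.32 against the OSVZ, adjusted p = 0.0044, and 3.92 against the IZ, adjusted p = 0.0082).

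**Figure D5:**
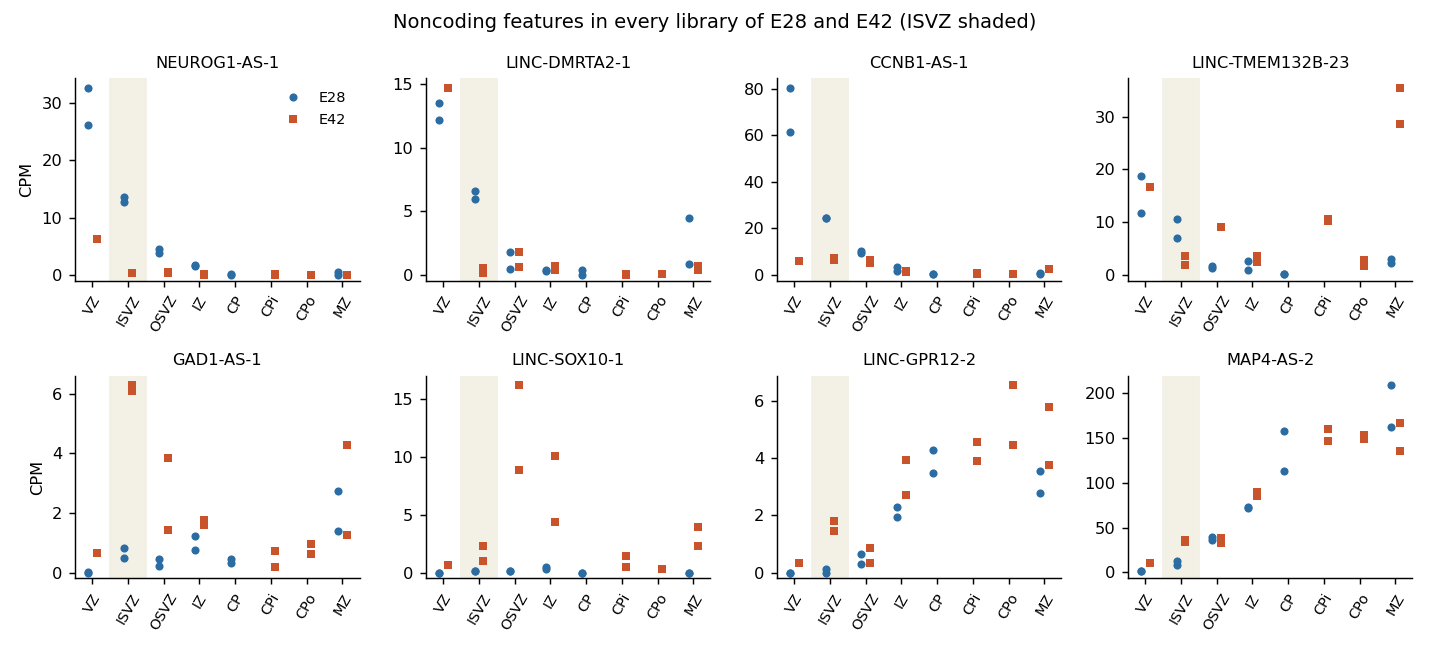
Level (CPM, linear axes) of 8 noncoding features in every library of E28 (circles) and E42 (squares), by layer from the ventricle outward, with the ISVZ shaded. The VZ at E42 has 1 library, because the other held the same counts as a VZ library of E28. NEUROG1-AS-1 and CCNB1-AS-1 fall from the VZ outward at E28, and GAD1-AS-1 is highest in the ISVZ of E42, at 6.09 and 6.27 CPM.

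Some of the deepest falls in the ISVZ were seen in every layer. A threshold chosen after the values were seen, at least 1 CPM in each of the 12 E28 libraries and at most 0.2 CPM in each of the 10 E37 and 13 E42 libraries, found 5 features, namely LINC-VAMP3-1, TSDBGID.17859, TSDBGID.5343, LINC-SUCLG1-21 and IGHV4-28-AS-1. All 5 were called lower in the ISVZ, but the ISVZ libraries are among those the threshold covers, so this follows largely from the choice. All 5 had their highest level in E28 ISVZ replicate 2. LINC-VAMP3-1 ranged from 53.8 to 357 CPM over the E28 libraries and reached at most 0.155 CPM at E37 and E42. The library labelled as VZ of E42 that was left out had 217 CPM, so the pattern holds only where its counts are taken as E28. The reverse pattern, at least 1 CPM in every E42 library and at most 0.2 CPM in every E28 library, was found for 0 features. The E37 libraries held no VZ, ISVZ or OSVZ sample, so the germinal layers were not covered at that stage, and the E42 VZ had 1 library. Such a block of transcripts, on in every E28 library and off in the E37 and E42 libraries used, moves with the stage. It also moves with whatever else the E28 libraries share, and these cannot be told apart.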

How the data were processed

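Layers were laser-microdissected and sequenced from poly-A libraries. Per the labels and methods, the authors aligned reads with HISAT2, handled them with SAMtools and counted them with HTSeq; the deposited values are raw counts per feature. Lines of reads on no feature were removed. The 35 distinct libraries of 36 (18 groups, 17 residual degrees of freedom) were fitted in edgeR 4.0.16 (R 4.3.3) with TMM factors, filterByExpr (minimum count 10, 26858 of 76871 features kept), robust quasi-likelihood tests and Benjamini-Hochberg adjustment over all features, with a threshold of 0.05. Alternatives were DESeq2 1.42.0, limma voom 3.58.1 with stage and replicate number as a random block, other scalings, filters and left-out libraries. Replicate numbers were checked for pairing across stages. The features named are the 8 LINC and 5 antisense features with the largest called change per direction (stages not overlapping, mean of at least 20 counts), up to 4 called per list and direction with the smallest adjusted p, 2 TSDBGID features per direction (mean of at least 5 CPM), symbols with 3 called features and 3 per direction for each difference between layers. Features named beyond these were chosen after their values were seen. The members and lists were chosen with earlier results of these data known. Intervals and floors cover counting error only. Each SE was the absolute log2 fold change divided by the square root of the F statistic of its test. It thus rests on the spread shared over groups, not on the libraries of the compared stages alone. Of the noncoding symbols tested, 5491 of 6348 were in the RefSeq table. Columns of samples not used were 0. The main fit was run on simulated counts for the ISVZ comparison, with the same spread for every feature and independent libraries. It therefore does not test the fit at the spread and correlation of the real libraries. One named feature is not reported here.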

Additional observations from a re-analysis of the deposited data

Results flagged for a closer look

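The change from E28 to E42 differed between the ISVZ and the OSVZ for 1066 features (edgeR quasi-likelihood test of the difference). Among the noncoding features named, the difference on the log2 scale, ISVZ minus OSVZ, was 2.454 for LINC-LORF2-107, 2.358 for LINC-REPS1-3, 1.877 for MAP4-AS-2, −1.554 for LINC-GPR85-2, −2.329 for RPL6-AS-34 and −4.235 for LINC-TMEM132B-23. RPL6-AS-34 had 17.3 and 37.2 CPM in the ISVZ at E28 and 23.8 and 29 at E42, where the stages overlapped, and its gene has many copies, so its reads are uncertain. The change differed between the ISVZ and the IZ for 1015 features. The difference, ISVZ minus IZ, was 9.449 for LINC-MFAP1A-11, 8.663 for RGS6-AS-1, 1.498 for MAP4-AS-2, −2.653 for LINC-PLIN3-8, −3.261 for LINC-ZFHX4-6 and −5.38 for LINC-HINT1-9. Both E42 IZ libraries had 0 counts of LINC-MFAP1A-11 and both E28 ISVZ libraries had 0 counts of RGS6-AS-1, so these 2 values depend on the prior count and are no bounds.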

How the results depend on the processing

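With 2 libraries per stage, small changes of low features cannot be seen, and the E28 library with the most reads without a unique alignment is 1 of the 2 of its stage. Of 26858 features, 2019 were lower at E42, 1192 with library totals alone, 997 with a log2 fold threshold of 1 and 845 to 1516 when each ISVZ library was left out in turn. The count of higher features without 1 library was 1036 to 1182. Noncoding features higher were 523 with DESeq2, 712 with limma voom and a random block for the libraries of 1 stage and replicate number (blocked limma voom), 191 with all 36 libraries, 512 with the compared groups alone and 94 to 170 without 1 library. Noncoding features lower were 153 with blocked limma voom, 41 with library totals alone, 133 with the compared groups alone and 23 to 44 without 1 library. Features whose change differed from the OSVZ were 1907 with DESeq2, 2135 with blocked limma voom, 539 with all 36 libraries and 540 to 842 without 1 library. Features whose change differed from the IZ were 1845, 2281 and 522 in the same order, 1755 with the compared groups alone and 472 to 715 without 1 library. The replicate numbers did not pair the ISVZ libraries across stages (correlation of deviations −0.0137). Within a stage, libraries of the same number had a correlation of 0.188 in blocked limma voom, and the edgeR tests of differences between layers do not model it. With the replicate number as a block across stages (a replicate block) 2310 features were higher, 2467 lower and 1566 differed from the IZ. The direction turned for 3 features without a called change in the ISVZ. For LINC-HINT1-9 in the ISVZ the log2 fold change was −0.300 without E42 replicate 2 and between that and 1.395 without 1 library. For LINC-MFAP1A-11 in the ISVZ it was −0.385 without E28 replicate 1 and −0.611 without E42 replicate 1, and up to 1.095 without another. For RPL6-AS-34 in the ISVZ it was 0.037 with blocked limma voom, 0.156 with library totals alone, 0.063 with counts thinned to 1 depth, 0.569 without E28 replicate 2 and 0.061 without E42 replicate 1, and as low as −0.494 without another. With all 36 libraries, the difference of MAP4-AS-2 was not called (adjusted p = 0.0941 against the OSVZ and 0.215 against the IZ), nor that of RGS6-AS-1 against the IZ (0.123), and without E42 replicate 1 that of LINC-HINT1-9 against the IZ was not (0.0728). The cause was not tested.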
